A study of Mus musculus with 20 samples.

Results

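The regions described here were open in mouse embryonic fibroblasts (MEFs), closed in embryonic stem cells (ESCs), and kept a peak through most of 2 reprogramming time courses. Merging peaks with an overlap of 1 bp or more across the 20 libraries gave 335858 regions, and open means here that a library had a peak in the region. The regions were chosen on these calls: open in MEFs, closed in all 3 ESC libraries, and open on at least 6 of 8 days with each of the 2 factor pairs. There were 1828 such persisting regions, 0.544% of all regions and 2.45% of the 74608 regions that MEFs had open and no ESC library did (MEF-only regions). The exact 95% interval of the latter share was 2.34% to 2.56%, and it covers counting error only.

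The data came from ATAC-seq, in which the Tn5 transposase cuts and tags accessible DNA. MEFs were isolated from OG2 mouse embryos, which carry an Oct4-GFP reporter, and were transduced with retroviral vectors for Nanog and Oct4 (Nanog+Oct4) or for NanogN70 and Oct4 (NanogN70+Oct4). NanogN70 is NANOG joined to the N-terminal, BRG1-binding domain of SS18, which belongs to the BAF chromatin remodeler. Transduced cells were collected on 8 days from day 0 to day 12, first in the serum-free medium iCD3 and at the end of the course in 2iL medium, in which the ESCs were also kept. Each day of each path and the untransduced MEFs had 1 library, so no value of these groups has a replicate check, and the 8 days of a path are successive samples of 1 course. The ESC samples had 3 libraries. Their source field names MEFs while their titles name ESCs, and they were grouped by title. The transduced cultures were mixed populations: a lower signal in bulk cells can mean fewer cells with an open region or less accessibility per cell, and these cannot be told apart.

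Fibroblasts are the mesenchymal cells that make and remodel the extracellular matrix, and their distal regulatory elements are rich in sites for AP-1, the dimer of FOS and JUN proteins, and for TEAD proteins, which act with the coactivators YAP and TAZ in contractile and adherent cells. RUNX and C/EBP proteins are other factors that bind mesenchymal enhancers. Reprogramming to pluripotency closes most of this fibroblast program while the enhancers bound by OCT4, SOX2 and NANOG become accessible.

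The sequences below are 81 bases around the highest MEF summit, on the plus strand of mm10, of persisting regions that were open in all 16 time course libraries. They are shown because they hold a consensus for 1 of the fibroblast factors within 25 bp of the summit and had the strongest MEF summits of those that do. Capitals mark the consensus, found on either strand: TGACTCA for AP-1 (TGAGTCA on the other strand), GGAATG for TEAD (CATTCC on the other strand), TGTGGTT for RUNX and TTGCNNAA for C/EBP. The AP-1 examples are intergenic and lie at chr5:31576803-31576883, 20092 bp from the start of Mrpl33, at chr3:41284906-41284986, 201900 bp from Pgrmc2, and at chr4:149820676-149820756, 46439 bp from Slc25a33.
Mrpl33 AP-1: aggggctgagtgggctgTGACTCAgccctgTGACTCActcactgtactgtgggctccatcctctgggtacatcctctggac
Pgrmc2 AP-1: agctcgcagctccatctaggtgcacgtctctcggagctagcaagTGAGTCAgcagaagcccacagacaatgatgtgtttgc
Slc25a33 AP-1: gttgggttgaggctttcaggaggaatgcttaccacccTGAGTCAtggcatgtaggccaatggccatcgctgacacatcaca
The first of these holds 2 AP-1 sites, and the Slc25a33 sequence also holds the TEAD letters from its base 22. The TEAD examples lie at chr2:26309861-26309941, between genes and 5614 bp from the start of Gpsm1, and at chr17:44709962-44710042, within the body of Runx2 and 220 bp from the start of its antisense transcript Runx2os2.
Gpsm1 TEAD: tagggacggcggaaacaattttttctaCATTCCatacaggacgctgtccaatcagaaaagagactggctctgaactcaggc
Runx2 TEAD: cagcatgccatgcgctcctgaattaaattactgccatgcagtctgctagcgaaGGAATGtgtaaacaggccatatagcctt
The RUNX example at chr7:36095650-36095730 lies 1688 bp from the start of the noncoding gene Gm38991, and the C/EBP example at chr13:92636958-92637038 lies in an intron of Serinc5, where the marked letters overlap the octamer ATGCAAAT bound by OCT4.
Gm38991 RUNX: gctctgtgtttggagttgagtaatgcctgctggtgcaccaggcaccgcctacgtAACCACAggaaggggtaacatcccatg
Serinc5 C/EBP: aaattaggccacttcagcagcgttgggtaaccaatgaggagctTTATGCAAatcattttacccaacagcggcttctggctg
A match is a description of the letters and not evidence that a factor was bound.

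The summit pileup, the number of tags over the highest point of a peak, was taken from the summit files and is not scaled to depth. At the intergenic AP-1 region near Mrpl33 the MEF pileup was 104 tags, with a lowest, median and highest of 6, 21.5 and 40 tags over the 8 Nanog+Oct4 days and of 4, 10 and 45 tags over the 8 NanogN70+Oct4 days. At the AP-1 region near Pgrmc2 the MEF pileup was 92 tags, the Nanog+Oct4 days gave 14, 28 and 44 tags and the NanogN70+Oct4 days gave 8, 21.5 and 32 tags. All 16 time course values of both regions lay below the MEF value in unscaled tags. At the TEAD region in Runx2, a gene for a transcription factor of bone and mesenchyme, the MEF pileup was 66 tags, and the paths spanned 6 to 24 and 6 to 41 tags, with both highest values on day 0. At the RUNX region the MEF pileup was 65 tags and the Nanog+Oct4 path reached 63 tags on day 8.

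The sequencing depth is unknown, and the median pileup over the 14217 regions open in all 20 libraries was used as a guide to it. This median was 39 tags in MEFs, 29 to 38 in ESCs, 16 to 38 over the Nanog+Oct4 days and 16 to 60 over the NanogN70+Oct4 days. Peak numbers ranged from 44126 to 107038 in the time course and were 125467 in MEFs. The MEF library had a peak within 1 kb of the start of all 10 fibroblast markers checked, and each ESC library of 9 of 10 pluripotency markers. The MEF library also had one at 2 of 10 pluripotency markers, and each ESC library at 6 of 10 fibroblast markers. The NanogN70+Oct4 day 3 library stood apart. Its 60 tags were the highest of these medians, 23.3% of the 76678 regions with a peak there had one nowhere else, and it had a peak at 12 of 16 leukocyte start sites against 0 in MEFs, 0 or 1 in every other time course library and 1 to 4 in ESCs. It had a peak at 1718 of the 1828 persisting regions. With that library left out and at least 5 days asked of each path, 2287 regions met the rule, among them, by construction, all 1828, and with at least 6 of the 7 remaining days 959 did. The part of the leukocyte signal in the results was not tested.

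Where persisting regions lacked a peak, it was mostly on the late days, and more often in the NanogN70+Oct4 path. With Nanog+Oct4, 87.3% of them had a peak on day 0 and 99.1% on day 8, and the day 10 and day 12 shares were 89.3% and 69.0%. With NanogN70+Oct4, the share was 97.1% on day 0, at most 98.5%, reached on day 7, and 96.6% on day 8, while days 10 and 12 had 48.1% and 49.9%. The rule allows 2 missing days per path but does not say which ones. Of the 1345 missing region and day pairs of the Nanog+Oct4 path, 56.7% fell on days 10 and 12, and of the 2313 of the NanogN70+Oct4 path, 80.6% did. These libraries also had fewer peaks in all, 50716 and 48843 with Nanog+Oct4 and 44126 and 54272 with NanogN70+Oct4, and the part of this in the lost calls was not tested. Among all MEF-only regions, the share with a peak was 31.2% and 36.5% on day 0 and 6.52% and 4.17% on day 12 with Nanog+Oct4 and NanogN70+Oct4.

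**Figure D1:**
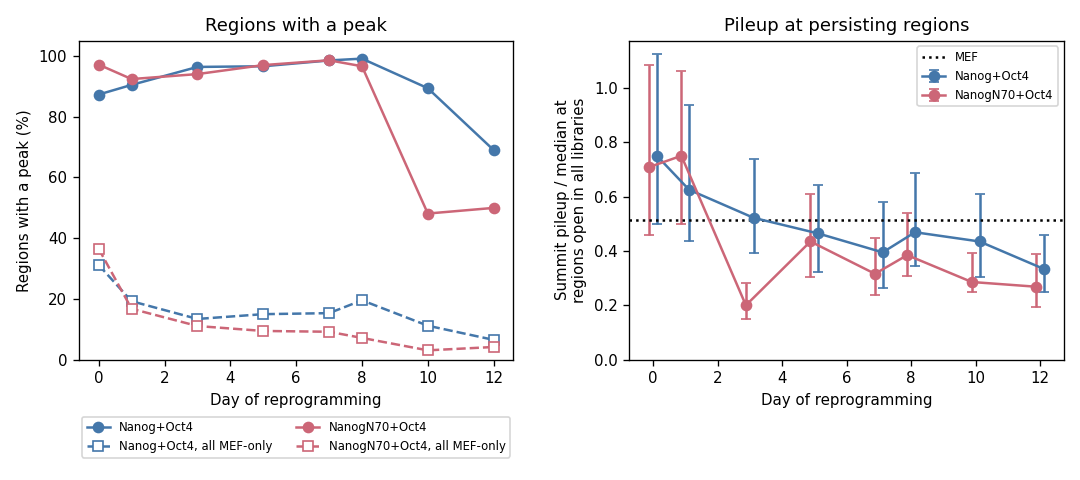
Left, the share of the 1828 persisting regions (filled circles) and of all 74608 MEF-only regions (open squares) with a peak against the day of reprogramming, in Nanog+Oct4 (blue) and NanogN70+Oct4 (red). Right, the median summit pileup of persisting regions with a peak, divided by the median over regions open in all 20 libraries, with bars for the quartiles and a dotted line for MEFs. The NanogN70+Oct4 share stood at 48.1% and 49.9% on days 10 and 12.

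Persisting regions differed in how completely they persisted. Peaks were present in all 16 time course libraries at 313 of them (17.1%), and in all 12 libraries of days 0 to 8 at 1202 (65.8%). On day 12, 796 (43.5%) had a peak in both paths, 465 (25.4%) with Nanog+Oct4 alone, 117 (6.40%) with NanogN70+Oct4 alone and 450 (24.6%) in neither. The regions that lacked a peak on both day 10 and day 12 numbered 133 with Nanog+Oct4 and 737 (40.3%) with NanogN70+Oct4, and 107 lacked one in all 4 of these libraries. The NanogN70+Oct4 path had the fewer days at 900 regions, the Nanog+Oct4 path at 234, and 694 had equal numbers. These calls are those the rule used, so the counts are given as a description.

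Where a peak was present it was usually at the MEF position. Over 25590 pairs of a region and a time course library with a peak, the distance between the highest summit and the highest MEF summit had a median of 44 bp and was within 150 bp in 79.1%. A time course peak covered the MEF summit in 89.5% of the pairs. The persisting regions had a median width of 744 bp, from 196 to 2308 bp, against 269 bp for all MEF-only regions and 1120 bp for regions open in all 20 libraries. Since a region is the union of peaks, its width grows with the number of libraries that have a peak in it. Although closed in ESCs, 16.4% of them had an ESC peak within 1 kb, against 13.0% of all MEF-only regions.

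The persisting regions were among the stronger fibroblast sites. Their MEF summit pileup had a median of 20 tags, with quartiles of 11 and 35 and a range of 4 to 124, against a median of 9 tags for all MEF-only regions and of 7 for the 33128 MEF-only regions closed in all 16 time course libraries. By MEF pileup, 0.865% of the 40454 MEF-only regions with 4 to 9 tags persisted (0.777% to 0.960%), 5.79% of the 6493 with 20 to 29 tags (5.23% to 6.39%), and 19.9% of the 1173 with 50 tags or more (17.7% to 22.4%). The MEF call is part of the rule, and a strong site passes a peak threshold more often at any depth. Even so, 350 of the persisting regions (19.1%) had under 10 tags in MEFs, and 939 of the 1173 strongest MEF-only regions were not among those that persisted.

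**Figure D2:**
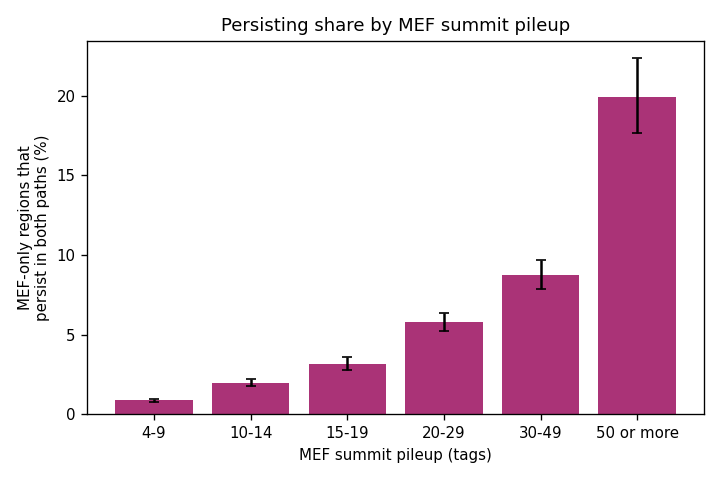
Bars give the share of MEF-only regions that persisted in both paths, by the MEF summit pileup in tags, with exact 95% intervals for counting error. The share was 0.865% for 4 to 9 tags and 19.9% for 50 tags or more.

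Relative to the regions open in all libraries, persisting regions with a peak were weaker at the end of both courses than in MEFs. The median pileup at persisting regions was 20 tags in MEFs, or 0.513 of the median over regions open in all 20 libraries. With Nanog+Oct4 this ratio was 0.750 on day 0, and later 0.395 (day 7) and 0.333 (day 12). With NanogN70+Oct4 it began at 0.708 and was 0.316 on day 7 and 0.268 on day 12, with its lowest value of 0.200 on day 3, in the library that stood apart. The day 0 and day 1 values of both paths, 0.625 to 0.750, exceeded the MEF value. These medians cover only regions with a peak in the library, so that the 915 persisting regions without a peak on NanogN70+Oct4 day 12 do not enter. Over the 313 regions open in all 16 libraries, the ratio was 0.744 in MEFs, 0.458 on Nanog+Oct4 day 12 and 0.293 on NanogN70+Oct4 day 12. At 788 persisting regions (43.1%) the median ratio over the time course libraries with a peak was above that in MEFs. Days without a peak do not enter, and these 788 had a median of 10 tags in MEFs, against 31 at the others.

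Most persisting regions lay far from promoters. Introns held 51.1% of their MEF summits, intergenic sequence 33.2%, exons 4.10% and promoters, the 2 kb on either side of an annotated start site, 11.5% (10.1% to 13.1%). The promoter share was 7.81% over all MEF-only regions (7.62% to 8.01%), 6.72% over those closed in all 16 time course libraries and 72.0% over regions open in all 20 libraries. The persisting share thus lay above that of the fibroblast sites and far below that of the shared sites, with intervals that do not overlap. Its size depended on the setting: it was 7.55% against 4.22% of MEF-only regions with 1 kb, 4.81% against 3.25% with protein-coding genes only, and 22.9% against 8.93% with equal numbers of top-scoring peaks. At 123 of the 211 promoter regions only a noncoding gene started within 2 kb. The median distance to a protein-coding start site was 47789.5 bp, against 62392 bp for MEF-only regions, and 889 persisting regions (48.6%) were more than 50 kb away. The GC content of the 201 bp around the summit had a median of 49.8%, against 45.8% for MEF-only regions and 62.7% for regions open in all libraries. The promoter share was 16.5% of the 796 regions open on day 12 in both paths and 7.33% of the 450 open in neither, with median GC contents of 52.2% and 47.3%.

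The AP-1 consensus stood within 25 bp of the MEF summit in 14.5% of the persisting regions (12.9% to 16.2%). The share was 13.6% of all MEF-only regions (13.4% to 13.9%), 11.0% of those closed in all 16 time course libraries (10.7% to 11.4%) and 1.50% of regions open in all 20 libraries. The interval for the persisting regions thus held the value of the MEF-only regions and lay above that of the regions closed throughout. The 39650 MEF-only regions in between, neither persisting nor closed throughout, held them in 15.7% (15.4% to 16.1%). This order depended on the setting. Against 13.6% of MEF-only regions, the share was 11.6% with at least 7 days asked of each path. With the NanogN70+Oct4 day 3 library left out it was 13.6% with at least 5 days and 10.4% with at least 6 of the 7 that remain. With equal numbers of top-scoring peaks it was 11.2%, against 16.5% of MEF-only regions. AP-1 letters also went with the strength of the MEF summit. Persisting regions with 50 tags or more held them in 23.9% (18.6% to 29.9%) and other MEF-only regions of that strength in 22.9%, while at 4 to 9 tags the shares were 9.43% (6.58% to 13.0%) and 11.1%. In 5 of the 6 ranges of MEF pileup the share was lower in persisting than in other MEF-only regions, and at 10 to 14 tags, with 10.3% (7.08% to 14.3%) against 14.3%, and at 15 to 19 tags, with 8.81% (5.46% to 13.3%) against 17.2%, the interval lay below the value of the others. Within 100 bp of the summit, 38.0% of the persisting regions held an AP-1 site, against 32.5% of MEF-only regions, 26.3% of those closed throughout and 37.4% of the MEF-only regions in between, a value inside the persisting interval of 35.7% to 40.2%.

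The TEAD consensus was less frequent in persisting regions than in the fibroblast sites at large. It stood within 25 bp of the summit in 5.14% of them (4.18% to 6.26%), against 8.40% of MEF-only regions (8.20% to 8.60%) and 8.84% of those closed throughout. In each of the 6 ranges of MEF pileup the share was lower in persisting than in other MEF-only regions: at 20 to 29 tags it was 3.72% (2.05% to 6.17%) against 9.89%, and at 50 tags or more 8.55% (5.30% to 12.9%) against 10.2%. In the last of these ranges the interval held the value of the others.

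**Figure D3:**
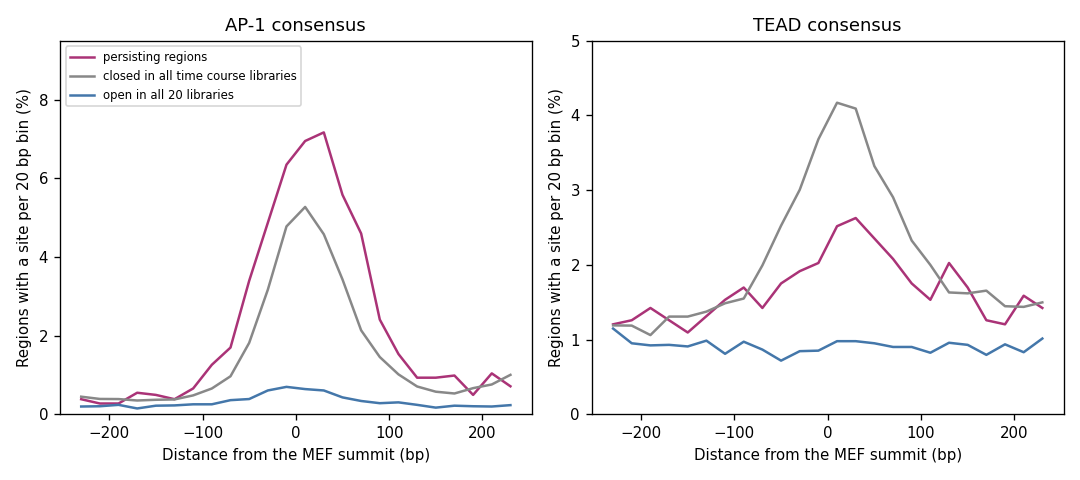
The share of regions with an AP-1 (left) or TEAD (right) consensus in each 20 bp bin is plotted against the distance from the MEF summit in bp, for persisting regions, MEF-only regions closed in all time course libraries and regions open in all 20 libraries. AP-1 reached 7.17% of persisting regions and 5.27% of closed regions in the highest bin of each, and TEAD reached 2.63% and 4.17%.

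Of the other consensus sequences, the E-box, the OCT4 octamer and the cAMP response element had intervals in persisting regions that lay above the MEF-only shares. The E-box CATCTG, a form bound by TWIST and related proteins, was found in 8.21% of persisting regions (6.99% to 9.56%) and 5.94% of MEF-only regions. RUNX letters were found in 2.08% (1.48% to 2.84%) and 2.62%, and C/EBP letters in 2.35% (1.71% to 3.16%) and 2.13%. The OCT4 octamer was found at 10 persisting regions, 0.547% (0.263% to 1.00%), against 0.224% of MEF-only regions. The cAMP response element TGACGTCA was found at 7, or 0.383% (0.154% to 0.787%), against 0.121% of MEF-only regions and 0.802% of regions open in all libraries. The CTCF consensus was found at 2 persisting regions, or 0.109% (0.0133% to 0.395%), against 0.161% of MEF-only regions. ETS letters (CCGGAAG) were found at 5, or 0.274% (0.0889% to 0.637%), against 0.244% of MEF-only regions. Both intervals held the MEF-only value, while regions open in all libraries held ETS letters in 4.07%. For NFI, CArG, MEF2, KLF and SOX letters the shares were 4.81%, 0.328%, 0.656%, 1.64% and 0.656%, against 4.29%, 0.362%, 0.535%, 1.66% and 0.701% of MEF-only regions, and each interval held the MEF-only value.

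Within the persisting regions, those with AP-1 letters were more often without a peak at the end. The share with an AP-1 site was 10.2% of the 796 open on day 12 in both paths (8.16% to 12.5%) and 22.0% of the 450 open in neither (18.3% to 26.1%). Among the 737 closed on days 10 and 12 with NanogN70+Oct4 it was 20.1% (17.2% to 23.2%). TEAD letters were found in 4.40% (3.08% to 6.06%), 4.44% (2.74% to 6.78%) and 6.24% (4.61% to 8.24%) of the same groups. The AP-1 share was 9.48% at promoters (5.89% to 14.3%) and 15.2% away from them (13.4% to 17.0%), and promoters were less frequent in the regions open on day 12 in neither path, as given above. The part of promoters and GC content in the AP-1 split was not tested.

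**Figure D4:**
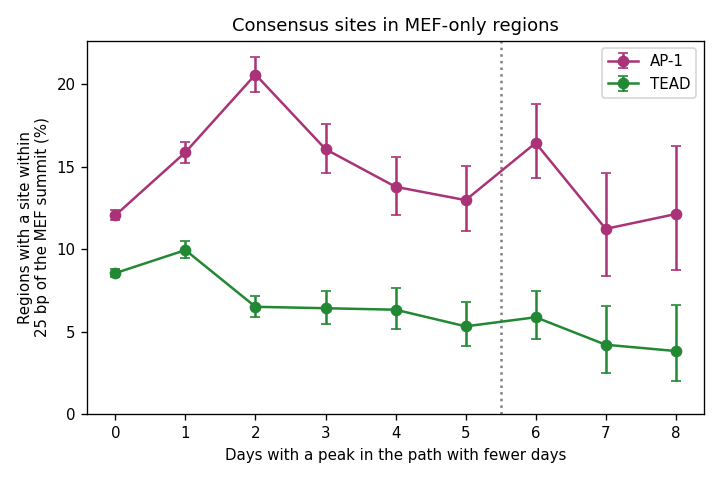
The share of MEF-only regions with an AP-1 or TEAD consensus within 25 bp of the MEF summit is plotted against the number of days with a peak in the path that had fewer, with exact 95% intervals; persisting regions lie right of the dotted line. AP-1 was at 12.1% for 0 days, 20.6% for 2 days and 12.1% for 8 days, and TEAD at 8.56% for 0 days and 3.83% for 8 days.

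Of the 21938 protein-coding genes, 1241 (5.66%) had a persisting region in the gene body or within 10 kb of it. These were long genes, with a median of 78.3 kb against 17.4 kb for all, so a share above 5.66% in a list of long genes is not a result about the list. Of the 22 fibroblast matrix genes 4 had one, of 16 contractile and actin genes 3, of 16 adhesion genes 4, and of 20 genes for mesenchymal transcription factors 5. The TGF-beta pathway had 6 of 18, TEAD and YAP genes 4 of 15, and AP-1 genes 1 of 12. Of the lists for other cell types, none of the 14 pluripotency, 16 leukocyte, 12 epithelial and 10 hepatocyte genes had one, and 1 of 10 neuronal genes did, the long gene Elavl4. None of the 7 cell cycle barrier genes had one. MEF-only regions of any kind were at 56.1% of coding genes. They were at 22 of 22 matrix, 15 of 16 contractile, 16 of 16 adhesion and 19 of 20 mesenchymal factor genes. They were at 6 of 14 pluripotency, 12 of 16 leukocyte, 10 of 12 epithelial, 2 of 10 hepatocyte and 6 of 10 neuronal genes. Of 157 MEF-only regions at matrix genes 4 persisted, and of 15 at pluripotency genes 0. The part of MEF-only regions in the list counts was not tested. The median gene length was 37.5 kb in the matrix list, 63.2 kb in the TGF-beta list and 8.83 kb in the pluripotency list.

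Among matrix genes, the persisting region nearest Col1a1, which encodes the main chain of type I collagen, lay at chr11:94928532-94929268 between genes and 7355 bp from the start site. Its pileup was 70 tags in MEFs, 11, 20 and 59 tags as the lowest, median and highest of the Nanog+Oct4 days and 14, 20 and 33 tags of the NanogN70+Oct4 days, with a peak on all 16. Every time course value was below that in MEFs, also relative to the regions open in all libraries. Fbn1, which encodes the microfibril protein fibrillin, had an intronic region at chr2:125301785-125302996 with 39 tags in MEFs, 6, 17.5 and 43 tags with Nanog+Oct4 and 7, 13 and 20 tags over the 7 days with a peak with NanogN70+Oct4. The region near Thbs2, which encodes the matrix protein thrombospondin, had 14 tags in MEFs and up to 32 and 29 tags in the paths.

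Postn, which encodes the matrix protein periostin, had its persisting region at the start site, at chr3:54360703-54361304. The MEF pileup was 16 tags. The Nanog+Oct4 values were 9, 13 and 23 tags over 7 days and the NanogN70+Oct4 values 6, 10 and 14 tags over 6 days, so that the values of the first path lay on both sides of the MEF value. The 250 bases upstream of the RefSeq start site (GRCm38.p6, chr3:54360857-54361106, plus strand) lie wholly within the region and are shown because the summit falls on this promoter. The capitals mark TATATAA, a form of the TATA box, which on either strand is found in 3.04% of the 32851 promoters in the RefSeq table. The letters TATAAA, in 12.4% of promoters, overlap it.
Postn promoter: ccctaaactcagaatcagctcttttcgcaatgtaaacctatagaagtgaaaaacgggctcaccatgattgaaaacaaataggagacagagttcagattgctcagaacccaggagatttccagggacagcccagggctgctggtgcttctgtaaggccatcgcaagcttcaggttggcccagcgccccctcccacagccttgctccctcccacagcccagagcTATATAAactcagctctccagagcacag
Of the genes with a persisting region within 1 kb of the start, 49 were in the table, and 3 of them (6.12%) had TATATAA there, against 3.60% of all genes in it.

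The contractile genes with a persisting region were Acta2, Actn4 and Flna. Acta2, which encodes smooth muscle actin, a marker of activated fibroblasts, had its region over the start site and first exon, at chr19:34254167-34255968. The pileup was 76 tags in MEFs and 8, 20.5 and 39 tags over the 8 Nanog+Oct4 days, with the lowest on day 12. It was 6, 18 and 45 tags over 7 NanogN70+Oct4 days, with no peak on day 12. All time course tag numbers were below that in MEFs. Actn4, which encodes an actin crosslinker, had 89 tags in MEFs at its exonic region, 11 to 37 tags with Nanog+Oct4 and 8 to 54 tags with NanogN70+Oct4, where days 10 and 12 had no peak. Flna, which encodes filamin, had 41 tags in MEFs and a peak on all 8 NanogN70+Oct4 days, from 17 to 30 tags, with the 30 on day 3 and at most 25 otherwise. With Nanog+Oct4 it had 7 to 38 tags over 7 days and no peak on day 5.

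Tags are not scaled to depth, and relative to the median over regions open in all 20 libraries the order is less uniform. On that ratio, 6 of the 25 listed genes with a persisting region had every open day below MEFs, namely Col1a1, Itgav, Runx2, Yap1, Tgfb1 and Smad7. At 15 of the 25, day 0 of at least 1 path lay above MEFs. Acta2 was among these, with a ratio of 1.95 in MEFs, 2.12 on Nanog+Oct4 day 0 and 0.333 on day 12, and so was Twist2, with 1.85, 2.31 and 0.333. On day 12 the ratio lay below that in MEFs, or no peak was present, in both paths at every listed gene but Tead1, where it was 0.282 in MEFs and 1.08 and 1.00 on day 12 with Nanog+Oct4 and NanogN70+Oct4.

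**Figure D5:**
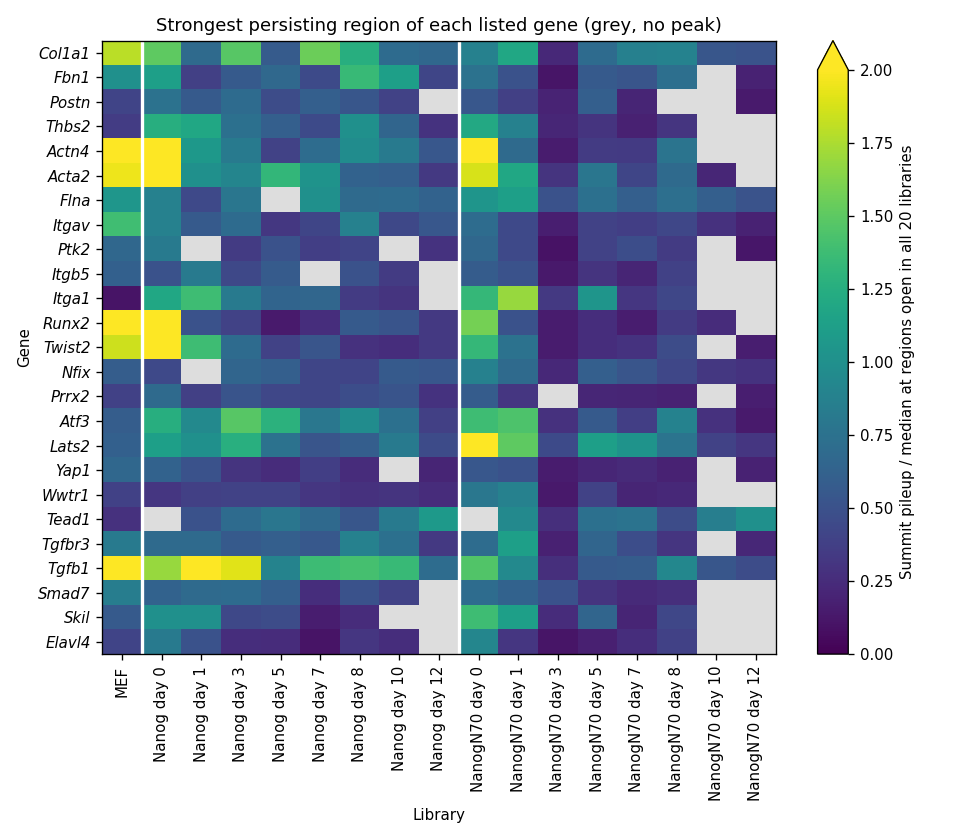
Summit pileup divided by the median over regions open in all 20 libraries, for the persisting region with the highest MEF pileup of each listed gene (rows), in MEFs and on each day of both paths (columns); grey is no peak. Acta2 had no peak on NanogN70+Oct4 day 12, and Col1a1 had one in all 16 time course libraries.

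Among the adhesion genes, Itgav, which encodes an integrin chain that binds matrix proteins, had a region 9485 bp from its start with 54 tags in MEFs, 9 to 28 tags with Nanog+Oct4 and 7 to 17 tags with NanogN70+Oct4, and a peak on every day. Itga1, the gene of a collagen-binding integrin chain, was unlike it. Its intronic region at chr13:115022168-115022708 had 4 tags in MEFs, and 7, 19 and 25 tags over the 7 Nanog+Oct4 days and 11, 22 and 32 tags over the 6 NanogN70+Oct4 days with a peak, so that every open day exceeded MEFs, on the ratio to regions open in all libraries too. The peaks were missing on days 10 and 12 with NanogN70+Oct4 and on day 12 with Nanog+Oct4. The regions in Ptk2, which encodes focal adhesion kinase, and Itgb5 had 26 and 24 tags in MEFs and at most 18 tags in any time course library.

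Of the mesenchymal transcription factor genes, Runx2 and Twist2 had strong MEF sites. Runx2 had 3 persisting regions. The one with the highest MEF pileup, in an intron at chr17:44499986-44500944, had 84 tags in MEFs, 4, 9.5 and 32 tags with Nanog+Oct4 and 6, 8 and 38 tags over 7 days with NanogN70+Oct4. Twist2, whose product keeps mesenchymal cells undifferentiated, had 72 tags in MEFs and 6, 13.5 and 37 tags and 6, 11 and 32 tags in the paths. In both genes the highest value of each path was that of day 0. Nfix and Prrx2 had 23 and 15 tags in MEFs, with highest values of 17 and 16 tags with Nanog+Oct4 and 21 and 14 tags with NanogN70+Oct4.

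Of the 12 AP-1 genes 1 had a persisting region (8.33%, against 5.66% of all coding genes), Atf3. It is an early response gene whose product pairs with JUN proteins, and its region lay 1675 bp from the start with 23 tags in MEFs, 9, 25 and 36 tags with Nanog+Oct4 and 6, 15.5 and 33 tags with NanogN70+Oct4, and a peak on every day. Among the TEAD and YAP genes, Lats2, which encodes the kinase that restrains YAP, had 24 tags in MEFs at an intronic region that also lies in the overlapping gene Gm49361, with 11 to 29 and 11 to 48 tags in the paths. Yap1 and Wwtr1, the genes of YAP and TAZ, had 26 and 15 tags in MEFs and medians of 8 tags with Nanog+Oct4. Tead1, the gene of their DNA-binding partner, differed. Its intronic region at chr7:112826020-112826792 had 11 tags in MEFs, 26 tags on Nanog+Oct4 day 12 and 41 tags on NanogN70+Oct4 day 12. These were the highest values of the paths, and Nanog+Oct4 day 7 also had 26 tags. The region had no peak on day 0 of either path.

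In the TGF-beta pathway, the region counted for Tgfb1, the gene of the ligand, had the highest MEF pileup of all listed genes. It lies outside Tgfb1 but within 10 kb of it, in an exon of the neighboring gene Ccdc97, at chr7:25711248-25712357. The pileup was 117 tags in MEFs, 17, 32.5 and 52 tags with Nanog+Oct4 and 13, 17.5 and 35 tags with NanogN70+Oct4. Tgfbr3, the gene of a coreceptor, had 32 tags in MEFs at the stronger of its 2 regions and 8 to 28 and 8 to 18 tags in the paths. The regions of Smad7 and Skil, whose products dampen the pathway, had 33 and 22 tags in MEFs and no peak with NanogN70+Oct4 on days 10 and 12. With Nanog+Oct4, Smad7 had none on day 12 and Skil none on days 10 and 12.

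The regions with the highest median ratio over the time course were not at listed genes. Among the 313 open in all 16 libraries, the region with the highest median ratio to the regions open in all 20 libraries lay at chr4:155487646-155488719, 2886 bp from the start of Gnb1, which encodes a G protein subunit. Its pileup was 40 tags in MEFs, 18, 37.5 and 65 tags with Nanog+Oct4 and 13, 40 and 74 tags with NanogN70+Oct4, and the median ratio was 1.68. Next came regions within Zmynd8, which encodes a chromatin reader, with 53 tags in MEFs and a median ratio of 1.44, and at chr7:36095142-36096379 near Gm38991, the RUNX example above, with 1.32. Others among the 10 highest lay in Ppfibp2, Igf2bp2, Slc6a6, Rnf216, near Dip2c and at the start of Tmem176a and Tmem176b, with median ratios between 1.12 and 1.26. At Tmem176a, the gene of a membrane protein, the MEF pileup was 51 tags, and both paths had their most unscaled tags on day 7, 70 and 68. On the ratio, its highest value of the time course was 2.17, on Nanog+Oct4 day 10.

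For 325 persisting regions (17.8%) another lay within 50 kb, and the longest chain held 4. No equal number of MEF-only regions was drawn for comparison, so a difference from MEF-only regions at large was not tested. Of the genes, 142 had 2 or more persisting regions. Sh3pxd2b, which encodes a podosome scaffold, had 4 within its 80.4 kb body and flanks, and St3gal3, Epb41l3, Bach2, Atxn1, Utrn and Fgfr2 also had 4 each. Gm20388 had 8, but this annotated gene spans 4435 kb and other genes, and Fgfr2 spans 2961 kb in this annotation. The Bach2 region with the highest MEF pileup, at chr4:32249642-32251525, had 75 tags in MEFs, 14 to 25 tags with Nanog+Oct4 and 10 to 40 tags with NanogN70+Oct4, with a peak on all days. The 40 tags are those of day 3, in the library that stood apart, and the highest value of the other days was 25. Bach2 encodes a relative of AP-1 proteins that represses their target genes.

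Within 2 kb of a coding start site lay 88 persisting regions, or 4.81%, against 3.25% of MEF-only regions. Within 1 kb lay 60 (3.28%). Chosen after their values were seen, the strongest in MEFs after Acta2 was that of Emilin1, which encodes an elastic fiber protein, at chr5:30912601-30913938. It had 61 tags in MEFs, 12, 22 and 37 tags with Nanog+Oct4 and 13, 21.5 and 26 tags with NanogN70+Oct4. Mfap2, the gene of another microfibril protein, had 27 tags in MEFs, 24 tags on Nanog+Oct4 day 12 and 29 tags on NanogN70+Oct4 day 12. Of the 60, 16 were open in all 16 time course libraries, among them Emilin1 and Mfap2. Over all persisting regions, 313 of 1828 (17.1%) were. The start sites of Lgals9, Lgals3bp and Itpkb had 80, 66 and 56 unscaled tags on NanogN70+Oct4 day 3, against 48, 39 and 30 tags in MEFs and at most 26, 43 and 21 tags in any other time course library. Of the 60 start sites, 22 had their highest tag number of the time course in that library, the one with the highest median over regions open in all libraries, and on the ratio to that median 5 did, Lgals9 and Itpkb but not Lgals3bp among them. The day 3 library was also the one with peaks at leukocyte start sites, and without its values these sites had a peak on 8, 8 and 8 days with Nanog+Oct4 and on 5, 6 and 6 of the other 7 days with NanogN70+Oct4.

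The rule cuts a continuous range. With 5 days in the path that had fewer, just outside, there were 1163 MEF-only regions with a median MEF pileup of 15 tags. With 6 days, just inside, there were 1088 with a median of 17 tags, with 7 days 427 with 21 tags and with 8 days 313 with 29 tags. Of those with 6 days in both paths, the strongest in MEFs lay in an intron of Mcph1 with 98 tags, and its peaks were missing on days 10 and 12 in both paths. Of those with 5 days in both, the strongest lay 151527 bp from Cd47 with 71 tags.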

How the data were processed

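ATAC-seq was measured in 20 libraries. The submitters' processing notes and the study's methods name Trim Galore 0.6.4, Bowtie2 2.4.5, SAMtools 1.16.1 and MACS 1.4.2 on mm10. The authors called peaks in each library separately, keeping duplicates and without a shift model, and no input control is named. The deposited score is -10 times log10 of the MACS p-value, with 50 the lowest in the files. The deposited summit signal is the pileup coverage in tags, not scaled to depth. No source used here gives read numbers. Depth is therefore unknown, and sites under a library's detection limit count as closed.

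From these files, peaks overlapping by 1 bp were merged and the rule was applied. Groups came from the sample titles. Summits were annotated with GENCODE M21 and sequence was read from GRCm38.p6, of which mm10 is the UCSC name. The last peak of each of 21 chromosomes lay inside the reference length. Another 14 sequence names were not annotated. Fixed consensus letters of 14 motifs were searched on both strands within 25 bp of the highest MEF summit. Shares have exact (Clopper-Pearson) 95% intervals. The rule uses every library and the groups of the time course have 1 library each, so no test was made. The members and the 13 gene lists were chosen with earlier results of these data known. Named regions were the 10 with the highest median ratio to regions open in all libraries, the strongest of each listed gene, and the 8 genes with most regions. One of the named regions is not reported here. Merging and the rule were checked on simulated peaks. Alternatives were a score of 100, equal peak numbers, other overlaps, day limits and windows, and leaving out libraries. Python 3.11.15, pandas 2.3.3, NumPy 2.4.6 and SciPy 1.17.1 were used.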

Additional observations from a re-analysis of the deposited data

Results flagged for a closer look

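In the NanogN70+Oct4 day 3 library, 12 of 16 leukocyte start sites had a peak, a signal at genes of another cell type. The number was 0 in MEFs, 0 or 1 in the other time course libraries and 1, 4 and 3 in the ESC libraries. Of the 60 persisting regions within 1 kb of a coding start site, 22 had their highest tag number of the time course in that library, and 5 their highest ratio to the median over regions open in all libraries. No group held 4 to 10 libraries, so no library was compared with its group for a value far from the others.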

How the results depend on the processing

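The number of persisting regions follows from the thresholds. It was 891 with a minimum score of 100, 2991, 740 and 313 with at least 5, 7 and 8 days, 959 without NanogN70+Oct4 day 3 and 834 without day 3 in both paths, where 6 of the 7 remaining days is a stricter rule. It stayed within 1.5 times the reported number for equal numbers of top-scoring peaks (1371), an overlap of 100 bp (1810), a peak over the MEF summit (1238) and without each ESC library (1910 to 2063).

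As a share of MEF-only regions the values were 1.98% (score), 5.49% (equal peak numbers), 2.31% (overlap), 1.66% (MEF summit), 4.01%, 0.992% and 0.420% (5, 7 and 8 days), 1.29% and 1.12% (without day 3 in NanogN70+Oct4 and in both), 3.07% (NanogN70+Oct4 day 3 left out with at least 5 days, chosen after seeing the data) and 2.53% to 2.69% without each ESC library.

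The AP-1 share was 12.1% (score), 11.2% (equal peak numbers), 11.6% and 12.1% (7 and 8 days), 10.4% and 11.5% (without day 3, at least 6 of 7 days), 12.5% at the summit of the top-scoring peak and 38.0% in the window of 100 bp, and ranged from 13.7% to 14.2% without each ESC library. The promoter share was 17.1% (score), 22.9% (equal peak numbers), 14.2% and 15.3% (7 and 8 days), 13.7% and 14.1% (without day 3), 7.55% with 1 kb, 4.81% with coding genes only and 12.0% to 12.7% without each ESC library. The median MEF pileup was 28 tags (score and equal peak numbers), 22 (MEF summit), 18, 24 and 29 (5, 7 and 8 days), 22 and 24 (without day 3) and 20 without each ESC library. Of the 188 listed genes, 28 had a persisting region, against 18 (MEF summit), 15 and 6 (7 and 8 days), 17 and 16 (without day 3) and 29 to 31 without each ESC library. With NanogN70+Oct4 day 3 left out and at least 5 days asked, the AP-1 share was 13.6%, the promoter share 11.2%, the median 19 tags and the gene count 31. The causes of these shifts were not tested.

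No paired analysis was possible because the result comes from no test and the groups have 1 library per day. With 1 library per day and unknown depth, a missing peak cannot be told from one below the threshold.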

Other observations

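Some persisting regions had a higher ratio to the regions open in all libraries at the end than in the 1 MEF library. Of the 607 with a peak on days 10 and 12 in both paths, 213 (35.1%) had a median ratio to the regions open in all libraries over these 4 libraries above that in MEFs. Over all 607 the median ratio was 0.390 in these libraries and 0.564 in MEFs. Chosen after their values were seen, the 6 with the largest gain in this ratio lay in Wnt10a, in Ephb2, at 2 places in Gse1, both also inside the annotated gene Gm20388, between genes with Usp25 the nearest, and at the start of Lrrtm2, inside Ctnna1. They had 6 to 20 tags in MEFs, where persisting regions had a median of 20 and a lowest of 4.

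The region in Wnt10a, which encodes a WNT ligand, lay at chr1:74797087-74797887, 5981 bp from the start. It had 6 tags in MEFs, no peak on days 0 and 1 of either path, 53 tags on Nanog+Oct4 day 7 and 29 tags on day 12, and 38 and 35 tags on the same days with NanogN70+Oct4. Its ratio was 0.154 in MEFs and 0.950 over days 10 and 12. The region in Ephb2, which encodes an ephrin receptor, had 10 tags in MEFs and 32 and 48 tags on day 12 of the paths. All 3 ESC libraries lacked a peak at these regions by the rule.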
